A study of Mus musculus with 16 samples.

Results

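The transcripts examined were those of 10 genes of the epithelial-mesenchymal transition (EMT): the transcription factors Snai1, Snai2, Zeb1, Zeb2, Twist1 and Twist2, the cadherins Cdh1 and Cdh2, the intermediate filament gene Vim and the matrix gene Fn1. They were taken by gene symbol from a table of 55487 gene identifiers, and all 10 were among the 24252 genes with enough counts to be tested. RNA had been sequenced from 16 samples of mouse mammary organoids, epithelial cultures grown in a medium with EGF and Rspo1-Noggin conditioned medium. The 3 wild-type (WT) samples came from normal breast, and the mutant samples came from breast tumors: 4 with a PIK3CA mutation, 4 with a HER2 mutation and 5 with both (double mutant). The series title names the alleles HER2 V777L and PIK3CA H1047R. The design text contrasts mice of the 4 genotypes, but the labels give no age, strain, promoter or Cre driver, and do not say whether samples of a genotype came from separate mice, so p-values measure the spread between these samples, which may be technical. Genotype and tissue source (normal or tumor) cannot be told apart in any comparison with WT.

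EMT is a program in which epithelial cells loosen their junctions and take on a motile, mesenchymal state. Factors of the SNAI, ZEB and TWIST families bind E-box motifs and repress epithelial genes, above all Cdh1 (E-cadherin, the adhesion molecule of epithelial junctions), while Cdh2 (N-cadherin), Vim (vimentin) and Fn1 (fibronectin) are classical mesenchymal readouts. In the mammary gland these genes are not markers of EMT alone: Snai2 belongs to the basal and stem-like epithelium, and Zeb1, Zeb2, Twist2, Vim and Fn1 are also strongly expressed by fibroblasts or, for Zeb2 and Vim, by macrophages. In these bulk samples fewer cells of a type and less RNA per cell cannot be told apart.

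Markers of other cells differed between the groups in a way that touches the mesenchymal genes, and their part in the results below was not tested. The summed level of the 5 hematopoietic genes Ptprc, Adgre1, Itgam, Fcer1g and Tyrobp was 47.3 to 216 CPM (read counts relative to the TMM-scaled library size) in WT, 0.668 to 1.66 in the PIK3CA mutant, 0.205 to 18.4 in the HER2 mutant and 0.230 to 0.671 in the double mutant. This subset was chosen after its values were seen, because Cd14 was high in every group and dominated the sum of the whole 11-gene immune list in the mutants (1054 to 3626 CPM in WT, 610 to 773, 272 to 456 and 240 to 425 in the PIK3CA, HER2 and double mutants). The 12 fibroblast markers summed to 1017 to 3243 CPM in WT, 485 to 1348 in the PIK3CA mutant, 52.0 to 948 in the HER2 mutant and 463 to 1698 in the double mutant. Without Postn, left out after seeing that it was high in most samples, the other 11 summed to 449 to 2272, 114 to 612, 39.0 to 810 and 38.7 to 162 CPM in the same order. By this 11-gene sum the highest mutants were HER2 replicate 4 (810), PIK3CA replicate 4 (612) and HER2 replicate 2 (378 CPM). The endothelial genes Pecam1, Kdr, Tie1, Tek, Emcn and Cldn5 stayed at or under 2.10 CPM in every sample. Luminal markers summed to at least 1645 CPM and basal markers to at least 247 CPM in every sample. Totals were 45545182 to 64168308 counts per sample, and double mutant replicates 2 and 3 lay apart from the other 3 double mutants on the second principal component of all genes (14.7% of the variance).

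Per kilobase of exon, Cdh1 was the most abundant of the 10 transcripts in all 4 genotypes, at group means of 110 to 141 CPM per kb. Fn1 (18.4 to 51.9), Vim (13.1 to 39.2) and Snai1 (12.0 to 23.2 CPM per kb) followed, and Fn1 and Vim overlapped within WT. Snai2 lay between 3.33 and 9.93, and Twist1 between 1.20 and 5.52 CPM per kb. Cdh2 (0.155 to 1.54), Zeb2 (0.0421 to 2.42), Zeb1 (0.103 to 0.653) and Twist2 (0.00264 to 0.129 CPM per kb) were the least abundant in the mutants, while in WT Zeb2 (2.42) was above Twist1 (1.20). Of the 10, these 4 transcripts had the widest fold range of group means.

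**Figure D1:**
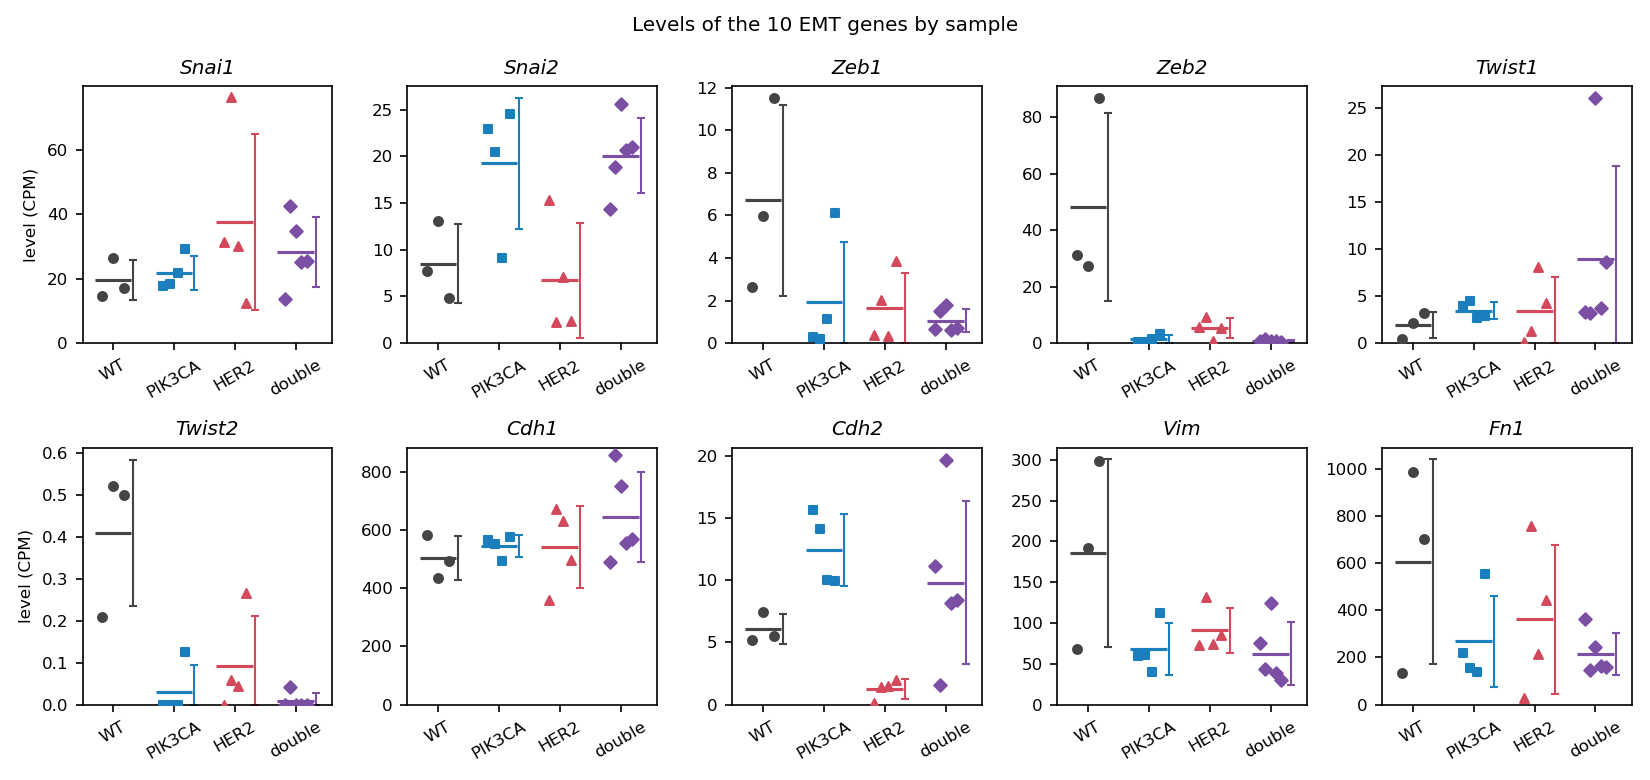
Level of each of the 10 genes (CPM, linear axis from 0, own scale per gene) in every WT, PIK3CA mutant, HER2 mutant and double mutant (double) sample; horizontal bars are group means and vertical bars are 1 SD, which is not drawn below 0. Zeb2 is high only in the 3 WT samples (27.1 to 86.7 CPM), Cdh2 is low in all 4 HER2 mutants (0.113 to 1.97 CPM), and Cdh1 lies between 361 and 859 CPM in every sample.

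Against WT, 0 of 10 members rose in any mutant by edgeR with all samples or by DESeq2, though with only the 2 genotypes in the edgeR fit Cdh2 was called higher in the PIK3CA mutant and Snai2 in the double mutant; Snai2 and Twist1 in the double mutant had an unadjusted p under 0.05. In the PIK3CA mutant 1 of 10 members fell (Zeb2), where 4.52% of all tested genes were called in either direction and 3.03% fell. In the HER2 mutant 2 of 10 fell (Zeb2 and Cdh2), beside 10.4% of all genes called and 5.63% that fell. In the double mutant 3 of 10 fell (Zeb2, Twist2 and Vim), beside 11.8% called and 6.72% that fell. With 10 members these counts are small, and 3, 2 and 4 members had groups that did not overlap with WT, against 29.5%, 22.2% and 23% of all genes. The median log2 fold change of the members was -0.53, -0.89 and -0.57 in the PIK3CA, HER2 and double mutants, while the median over all tested genes was -0.03, 0.03 and 0.01. A call means an adjusted p under 0.05 in edgeR's quasi-likelihood test with Benjamini-Hochberg adjustment over all 24252 genes. The 3 comparisons share the WT samples. Leaving out double mutant replicates 2 and 3 kept the double mutant's calls of Zeb2 (adjusted p = 0.00431), Twist2 (adjusted p = 0.0408) and Vim (adjusted p = 0.0307, edgeR).

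**Figure D2:**
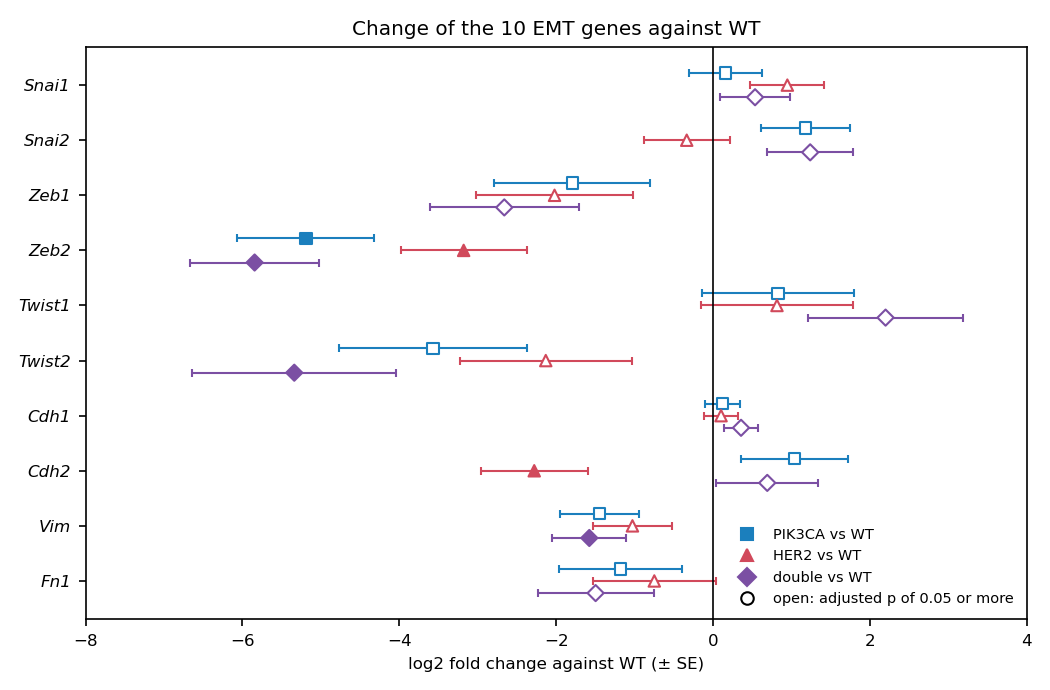
Fitted log2 fold change of each gene against WT, with bars of 1 standard error, for the PIK3CA, HER2 and double mutants; filled symbols have an adjusted p under 0.05. Zeb2 is filled in all 3 mutants (-5.19, -3.18 and -5.85), Cdh2 only in the HER2 mutant (-2.28), and Twist2 and Vim only in the double mutant; Twist2 rests on few counts and its fitted values depend on the prior count.

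Zeb2 (ENSMUSG00000026872, chr2:44983632-45117395, minus strand, GRCm38), a zinc-finger repressor of Cdh1, showed the largest change of the 10 genes that did not rest on near-empty libraries. It was at 31.1, 27.1 and 86.7 CPM in the 3 WT samples. The PIK3CA mutants held 0.334, 0.269, 1.33 and 3.34 CPM, the HER2 mutants 5.73, 9.39, 0.712 and 5.47 CPM, and the double mutants 0.621, 1.49, 0.883, 0.683 and 0.525 CPM. All 13 mutant samples therefore lay below the lowest WT sample. The fall was 36.6-fold in the PIK3CA mutant (log2 fold change -5.19 ± 0.875 SE, adjusted p = 0.00260 in edgeR), 9.06-fold in the HER2 mutant (-3.18 ± 0.801, adjusted p = 0.0211) and 57.5-fold in the double mutant (-5.85 ± 0.822, adjusted p = 0.000408).

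The size of the Zeb2 change leaned on WT replicate 3, which held both the most Zeb2 and the most hematopoietic RNA (216 CPM over the 5 genes). Without it the log2 fold changes were -4.46 in the PIK3CA mutant (adjusted p = 0.0176), -2.45 in the HER2 mutant (adjusted p = 0.129, call lost, as with only WT and HER2 mutants in the fit, adjusted p = 0.0731, and with replicate number as a block, adjusted p = 0.0505) and -5.12 in the double mutant (adjusted p = 0.00299, all edgeR). Without PIK3CA replicate 4 the fall in that genotype was -6.24. Among the mutants, HER2 replicates 1 and 2 had the highest sums of these 5 genes, 18.4 and 8.81 CPM, and the most Zeb2, 5.73 and 9.39 CPM. HER2 replicate 4 departed from that order, with 5.47 CPM of Zeb2 beside 0.205 CPM of the hematopoietic genes and 810 CPM of the fibroblast markers. The part of these cells in the Zeb2 result was not tested. Lyz2, a lysozyme gene of macrophages, was at 1109, 405 and 2649 CPM in WT, 142 and 58.2 CPM in HER2 replicates 1 and 2, and at most 7.84 CPM in the other 11 mutants.

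Zeb2 is known as a target of the miR-200 family, microRNAs of epithelial cells that repress ZEB transcripts and are repressed by ZEB proteins in turn. The family's mature sequences are shown because they define the sites in the transcript that changed most. They are RefSeq entries (GRCm38.p6), 5′ to 3′, with the seed (bases 2 to 8) in capitals, and they fall into 2 seed groups that differ by 1 base.
mmu-miR-200b-3p: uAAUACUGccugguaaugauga
mmu-miR-200c-3p: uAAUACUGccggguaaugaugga
mmu-miR-429-3p: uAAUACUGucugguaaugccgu
mmu-miR-200a-3p: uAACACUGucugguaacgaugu
mmu-miR-141-3p: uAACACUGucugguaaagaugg

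The 4941-base 3′ UTR of Zeb2 (the longest one annotated in GENCODE M21) held 5 matches to CAGTATT, the complement of the first seed, and 4 to CAGTGTT, the complement of the second, searched on the transcript strand only. The first and last site of each kind are printed with the 7 matching bases in capitals.
CAGTGTT site, chr2:44988355-44988372: attttgtaCAGTGTTaag
CAGTATT site, chr2:44988171-44988188: ccatacatCAGTATTtta
CAGTATT site, chr2:44987525-44987542: gtagtgtaCAGTATTata
CAGTGTT site, chr2:44984401-44984418: aaggactgCAGTGTTtag
That is 1.82 matches per kb, against 0.258 per kb over the longest 3′ UTRs of 21024 genes. By number of matches, not scaled by length, 3 of these UTRs (0.0143%), that of Zeb2 included, held at least 9. These matches are a description of the sequence. Mature microRNAs were not measured, and reads assigned to the precursor genes were few: 14 to 79 counts per sample for Mir200a, 10 to 46 for Mir200b, 3 to 36 for Mir200c, 0 to 5 for Mir141 and 0 for Mir429. Such counts in an mRNA library do not measure the mature forms.

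Zeb1 (ENSMUSG00000024238, chr18:5591860-5775467), the paralog of Zeb2 with the same repressor role, was lower in mean in every mutant but was not called. It was at 2.62, 5.98 and 11.5 CPM in WT, 0.286, 0.186, 1.13 and 6.13 in the PIK3CA mutant, 0.396, 2.02, 0.334 and 3.85 in the HER2 mutant, and 0.674, 1.51, 1.79, 0.610 and 0.719 CPM in the double mutant. The single mutants overlapped WT through PIK3CA replicate 4 and HER2 replicate 4, and the double mutants did not overlap. The log2 fold changes were -1.79 ± 0.995 SE (adjusted p = 0.393), -2.02 ± 1.00 (adjusted p = 0.218) and -2.66 ± 0.947 (adjusted p = 0.0815, edgeR). The 2 overlapping samples had the highest fibroblast sums without Postn among the mutants (612 and 810 CPM); with Postn, double mutant replicate 3 was highest (1698 CPM). In the double mutant it was called with DESeq2 (adjusted p = 0.0247) and with only WT and double mutants in the edgeR fit (adjusted p = 0.00925).

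**Figure D3:**
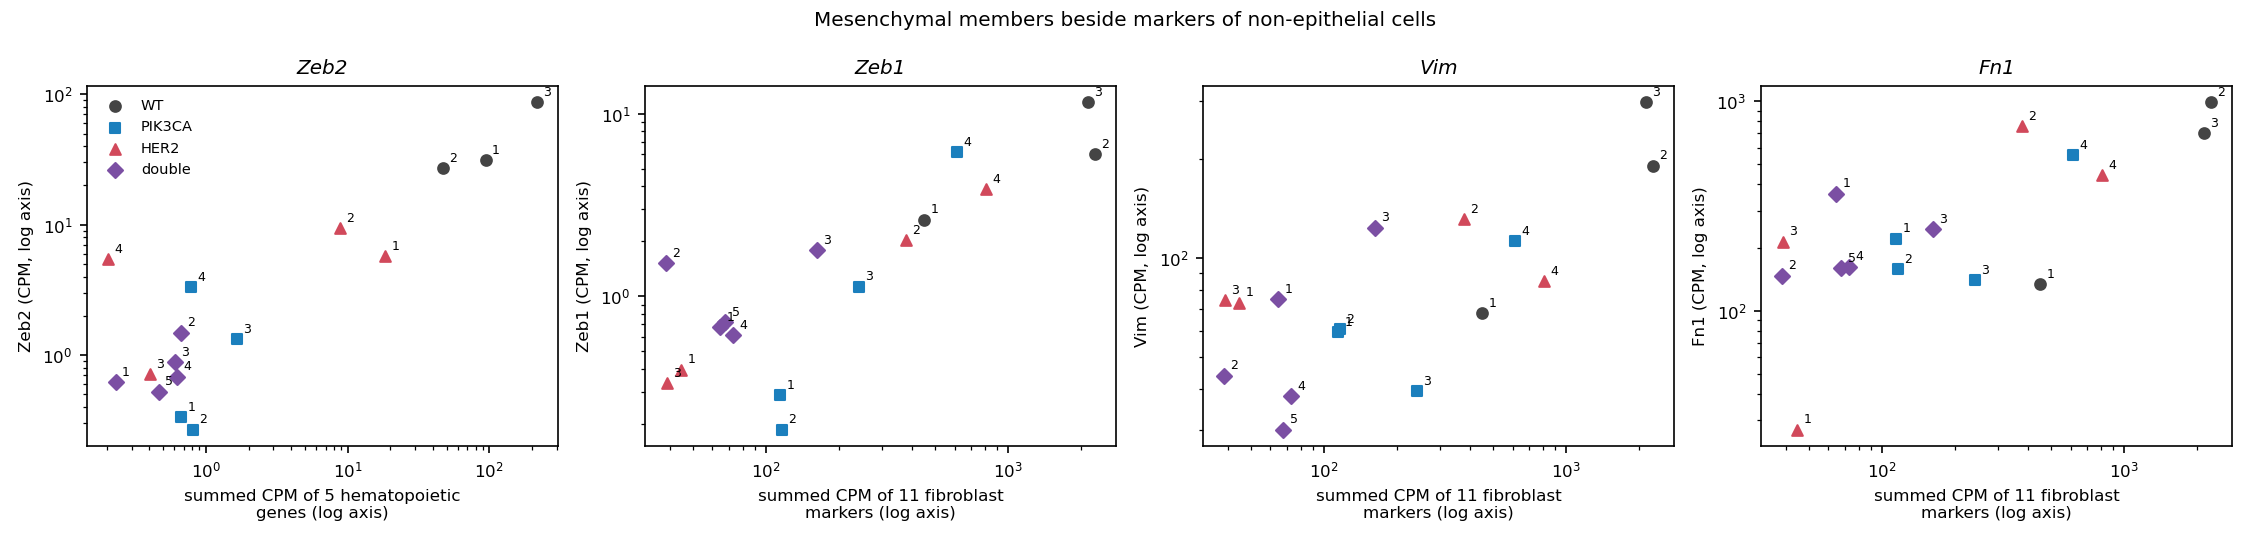
Level of Zeb2, Zeb1, Vim and Fn1 (CPM, log axis) against the summed level (CPM, log axis) of 5 hematopoietic genes (Zeb2) or of 11 fibroblast markers without Postn (the others), one point per sample, numbered by replicate. The WT samples lie to the upper right for Zeb2 (27.1 to 86.7 CPM beside 47.3 to 216 CPM), and PIK3CA replicate 4 and HER2 replicates 2 and 4, with 378 to 810 CPM of the fibroblast markers, hold 445 to 759 CPM of Fn1.

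Snai1 (ENSMUSG00000042821, chr2:167538195-167542814), the zinc-finger factor that is often induced first in EMT, was present in every sample and was called in no comparison. It was at 14.7, 26.6 and 17.2 CPM in WT and 17.6, 18.4, 21.8 and 29.4 CPM in the PIK3CA mutant. The HER2 mutants spread over 6.21-fold, at 31.3, 76.6, 30.3 and 12.3 CPM, and the double mutants were at 13.7, 42.5, 34.7, 25.1 and 25.4 CPM. Every mutant group overlapped WT. Compared with WT, the log2 fold change was 0.16 (interval of 2 SE on each side, -0.77 to 1.09) in the PIK3CA mutant, 0.95 (0.00 to 1.89) in the HER2 mutant and 0.54 (-0.36 to 1.44) in the double mutant, with adjusted p = 0.907, 0.221 and 0.484 in edgeR.

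Snai2 (ENSMUSG00000022676, chr16:14705852-14709385), its relative in the basal layer, was higher in mean in both genotypes with the PIK3CA mutation than in WT and the HER2 mutant, without passing the test. WT samples held 7.67, 13.0 and 4.79 CPM and PIK3CA mutants 22.9, 20.4, 9.06 and 24.5 CPM. HER2 mutants held 15.3, 2.24, 7.05 and 2.33 CPM, and double mutants 14.3, 18.9, 25.6, 20.6 and 21.0 CPM. All 5 double mutants exceeded the highest WT sample, and 4 of them and 3 PIK3CA mutants exceeded every HER2 mutant. Against WT its log2 difference was 1.18 ± 0.567 SE in the PIK3CA mutant (adjusted p = 0.308), -0.33 ± 0.550 in the HER2 mutant (adjusted p = 0.747) and 1.24 ± 0.551 in the double mutant (adjusted p = 0.159; 0.0307 with only the 2 genotypes in the fit). Between mutants it was 1.57 ± 0.504 for double against HER2 (adjusted p = 0.103) and -1.51 ± 0.520 for HER2 against PIK3CA (adjusted p = 0.112, all edgeR).

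HER2 replicate 1 decided whether Snai2 was called between the mutants. Without it, the differences were 2.37 for double against HER2 (adjusted p = 0.0152) and -2.31 for HER2 against PIK3CA (adjusted p = 0.0125 in edgeR), and DESeq2 called both with all samples (adjusted p = 0.0248 and 0.0411). The same replicate stood apart in its summed basal markers, through Krt14, Trp63 and Krt17. The 8 basal and myoepithelial genes summed to 876 CPM there and to 247, 253 and 360 CPM in the other HER2 mutants, against 450 to 927 in WT, 427 to 1190 in the PIK3CA mutant and 535 to 959 CPM in the double mutant. The part of basal cell content in the Snai2 values was not tested. Krt5, a keratin of basal cells, was low in all 4 HER2 mutants, at 34.1 ± 17.4 CPM (SD, n = 4) in the HER2 mutant and 252 ± 110 (n = 3) in WT.

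Twist1 (ENSMUSG00000035799, chr12:33957671-33959829), a basic helix-loop-helix factor, varied widely within groups. It was at 0.454, 2.18 and 3.22 CPM in WT, 3.91, 4.48, 2.64 and 2.86 in the PIK3CA mutant, and 0.151, 1.27, 8.12 and 4.24 CPM in the HER2 mutant. The double mutants held 3.28, 3.19, 26.1, 3.71 and 8.67 CPM, so the group mean rested on replicate 3. Its log2 fold changes against WT were 0.83 ± 0.970 SE, 0.82 ± 0.970 and 2.20 ± 0.994 in the PIK3CA, HER2 and double mutants, and none passed the test (adjusted p = 0.738, 0.642 and 0.166 in edgeR).

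Twist2 (ENSMUSG00000007805, chr1:91801461-91848028), the paralog of Twist1 and known from dermal and other mesenchymal cells, was near the limit of detection. The WT libraries held 12, 26 and 30 counts. The PIK3CA mutants held 0, 0, 0 and 7 counts, the HER2 mutants 0, 3, 2 and 13, and the double mutants 0, 2, 0, 0 and 0. Over whole groups, scaled by library size, WT exceeded the double mutant by a ratio of 53.0 (68 counts against 2; exact 95% binomial interval 14.1 to 447, counting error only), the PIK3CA mutant by 12.3 (5.68 to 31.9) and the HER2 mutant by 4.49 (2.64 to 8.03). Only the double mutant passed the test between samples (adjusted p = 0.0141 in edgeR), and that call was lost without WT replicate 3 (adjusted p = 0.0598). In the PIK3CA mutant all 7 counts lay in replicate 4, and without it the gene was called (adjusted p = 0.0362), as it was with only the 2 genotypes in the fit (adjusted p = 0.0419). With replicate number as a block in the fit, Twist2 was called in the PIK3CA and HER2 mutants (adjusted p = 0.0284 and 0.0494, edgeR). PIK3CA replicate 4 and HER2 replicate 4, with the most Twist2 among the mutants, also had the highest fibroblast sums without Postn (612 and 810 CPM), while with Postn double mutant replicate 3, at 0 counts of Twist2, was highest (1698 CPM).

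Cdh1 (ENSMUSG00000000303, chr8:106603351-106670246) was the steadiest of the 10 genes. It was at 583, 434 and 493 CPM in WT, 567, 552, 492 and 577 in the PIK3CA mutant, 361, 673, 630 and 498 in the HER2 mutant, and 489, 859, 751, 555 and 570 CPM in the double mutant. All groups overlapped. Its log2 difference from WT was 0.12 in the PIK3CA mutant (interval of 2 SE on each side, -0.32 to 0.56), 0.10 in the HER2 mutant (-0.34 to 0.54) and 0.36 in the double mutant (-0.07 to 0.78), with adjusted p = 0.846, 0.812 and 0.300 in edgeR. In bulk RNA, a loss of E-cadherin transcript by more than 0.34 on the log2 scale lies outside each of these 3 intervals. Cdh1 per epithelial cell was not measured. The WT samples held more immune marker RNA than every mutant, and the part of cell content in the Cdh1 values was not tested.

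Cdh2 (ENSMUSG00000024304, chr18:16588877-16809246, minus strand) was the only member called between mutant genotypes in the edgeR fit of all samples, for HER2 against PIK3CA and for double against HER2 mutants; DESeq2 also called Snai2 and Zeb2 in both. WT samples held 5.19, 7.44 and 5.54 CPM. The PIK3CA mutants held 15.7, 14.1, 10.0 and 9.90 CPM, all above WT, and the HER2 mutants 0.113, 1.45, 1.47 and 1.97 CPM, all below it. The double mutants were at 11.1, 1.59, 19.7, 8.13 and 8.40 CPM, so 4 of 5 lay above every WT sample and replicate 2 lay among the HER2 mutants. HER2 mutants were 9.95-fold lower than PIK3CA mutants (log2 difference -3.32 ± 0.678 SE, adjusted p = 0.0132 in edgeR), and this was the 1 member called of 10, beside 4.41% of all genes called and 2.2% that were lower in the HER2 mutant. That was also the 1 member whose groups did not overlap there, beside 12.5% of all genes. The call was kept without each of the 8 single-mutant samples in turn.

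Double mutants exceeded HER2 mutants 7.84-fold in Cdh2 (log2 difference 2.97 ± 0.654 SE, adjusted p = 0.0274 in edgeR). This was the 1 member called of 10 in that comparison, where 2.5% of all genes were called and 1.03% were higher in the double mutant, and the groups overlapped only through double mutant replicate 2. No member's groups were fully apart there, beside 4.59% of all genes. The adjusted p was 0.0543, 0.0518 and 0.0513 without double mutant replicates 1, 4 and 5, so each of these samples decided the call, while the log2 difference stayed between 2.55 and 3.28. Without double mutant replicates 2 and 3 together the adjusted p was 0.0140. The call was also lost with only these 2 genotypes in the fit (adjusted p = 0.173), with replicate number as a block in the fit (adjusted p = 0.118) and without PIK3CA replicate 4 and HER2 replicates 2 and 4 (adjusted p = 0.0848). Against WT, Cdh2 was 4.86-fold lower in the HER2 mutant (-2.28 ± 0.683, adjusted p = 0.0443). That call was lost without any of the 3 WT samples or HER2 replicates 2 or 3 (adjusted p 0.0635 to 0.111), under upper-quartile scaling (adjusted p = 0.0508), with only the 2 genotypes in the fit (adjusted p = 0.124), with replicate number as a block (adjusted p = 0.0988) and without PIK3CA replicate 4 and HER2 replicates 2 and 4 (adjusted p = 0.0688). In the PIK3CA mutant the log2 difference from WT was 1.04 ± 0.680 (adjusted p = 0.493; 0.0135 with only the 2 genotypes in the fit), and in the double mutant 0.69 ± 0.649 (adjusted p = 0.540, edgeR).

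Basal markers moved with part of this pattern. HER2 replicates 2, 3 and 4 had the 3 lowest basal sums of all samples (247 to 360 CPM) and 1.45 to 1.97 CPM of Cdh2. HER2 replicate 1 had the lowest Cdh2 of all (0.113 CPM, 6 counts) and a basal sum of 876 CPM, most of it Krt14 (507), Trp63 (165) and Krt17 (105 CPM). Of its other 5 basal genes, 4 were low as in the rest of the HER2 mutants: Krt5 was at 44.8 CPM there (131 to 345 in WT), Mylk at 2.02 (16.4 to 42.0), Myh11 at 1.36 (5.58 to 12.0) and Cnn1 at 0.811 CPM (3.10 to 8.42). PIK3CA replicate 3 had a basal sum of 427 CPM and 10.0 CPM of Cdh2. Luminal markers also moved in these comparisons. Of 10 luminal genes, 3 were higher in double than in HER2 mutants and 2 were lower in HER2 than in PIK3CA mutants. Of the 8 basal genes 2 and 4 were called in these directions, beside 1.03% and 2.2% of all genes (edgeR). The part of basal or luminal cell content in the Cdh2 result was not tested.

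**Figure D4:**
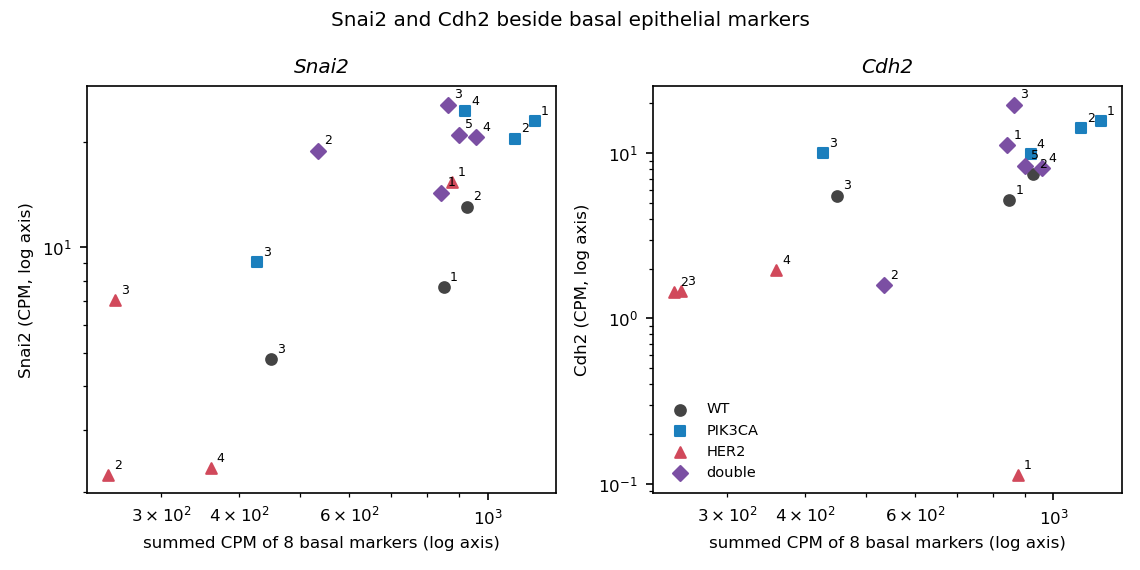
Level of Snai2 (left) and Cdh2 (right) in CPM on a log axis against the summed CPM of 8 basal and myoepithelial markers on a log axis, one point per sample, numbered by replicate. HER2 replicate 1 has a summed level of 876 CPM, carried by Krt14, Trp63 and Krt17 while Krt5 is low, with 15.3 CPM of Snai2 and the lowest Cdh2 (0.113 CPM).

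Cdh2 was scarce beside Cdh1 in every sample. Per kilobase of exon, Cdh2 was 0.505%, 0.972% and 0.637% of Cdh1 in WT and 1.57%, 1.45%, 1.15% and 0.973% in the PIK3CA mutant. It was 0.0178%, 0.122%, 0.132% and 0.224% in the HER2 mutant and 1.29%, 0.105%, 1.48%, 0.830% and 0.835% in the double mutant. No sample approached equal levels of the 2 cadherins.

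Vim (ENSMUSG00000026728, chr2:13573927-13582826), the filament protein of mesenchymal cells that basal mammary cells also carry, was lower in mean in each mutant. It was at 68.1, 192 and 298 CPM in WT, 59.5, 61.0, 39.3 and 113 in the PIK3CA mutant, and 73.4, 132, 74.5 and 85.2 CPM in the HER2 mutant. The double mutants held 75.1, 44.0, 124, 38.2 and 30.1 CPM. WT replicate 1 lay within the PIK3CA and double mutant ranges and below every HER2 mutant, so all 3 mutant groups overlapped WT. The double mutant passed the test at a 2.98-fold fall (log2 fold change -1.58 ± 0.472 SE, adjusted p = 0.0398). The PIK3CA mutant (-1.45 ± 0.502, adjusted p = 0.129) and the HER2 mutant (-1.03 ± 0.501, adjusted p = 0.211, all edgeR) did not. The double mutant's call was lost without WT replicates 2 or 3 or double mutant replicates 1, 2, 4 or 5 (adjusted p 0.0510 to 0.276), with only the 2 genotypes in the fit (adjusted p = 0.0827) and with replicate number as a block in the fit (adjusted p = 0.123).

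Fn1 (ENSMUSG00000026193, chr1:71585520-71653200, minus strand), a matrix protein made by fibroblasts and by cells in EMT, was called in no comparison. It was at 134, 985 and 700 CPM in WT, 220, 157, 140 and 554 in the PIK3CA mutant, 27.1, 759, 213 and 445 in the HER2 mutant, and 361, 147, 245, 162 and 159 CPM in the double mutant. The log2 fold changes against WT were -1.18 ± 0.786 SE, -0.75 ± 0.786 and -1.50 ± 0.740 (adjusted p = 0.501, 0.590 and 0.208 in edgeR). The HER2 mutants spanned 28.0-fold, more than any difference between group means. The 3 mutants with the highest Fn1 were HER2 replicates 2 and 4 and PIK3CA replicate 4, those with the most Col1a1 among the mutants (181, 352 and 250 CPM), and WT replicate 1, the lowest in Fn1, had the least Col1a1 of the WT samples (133 CPM). Other samples departed from that order. By the whole fibroblast list double mutant replicate 3 was the highest mutant (1698 CPM), with 245 CPM of Fn1. Double mutant replicate 1, next in Fn1 among the mutants (361 CPM), had 64.7 CPM of the fibroblast markers without Postn. The part of fibroblast content in the values of Vim and Fn1 was not tested.

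Between double and PIK3CA mutants none of the 10 members was called in edgeR, beside 0.672% of all genes, and none had an unadjusted p under 0.05. DESeq2 also called 0. No member's groups were apart there, beside 7.92% of all genes. The intervals of 2 SE on each side were narrowest for Cdh1 (-0.15 to 0.62) and wide for Cdh2 (-1.50 to 0.81), Zeb2 (-2.09 to 0.78) and Twist1 (-0.34 to 3.08). A 2-fold fall of Cdh2 or Zeb2 and a 2-fold rise of Twist1 thus cannot be told from no change. The interaction term, the part of the double mutant's log2 change beyond both single-mutant changes added up, called 0 members in edgeR and in DESeq2, beside 1.06% of all genes. At an unadjusted p under 0.05 there were 2 members, Zeb2 (2.53 ± 1.07 SE, adjusted p = 0.301) and Cdh2 (1.94 ± 0.895, adjusted p = 0.355, edgeR). The interaction term includes WT, so genotype and tissue source cannot be told apart in it. An equal fall in every mutant genotype gives it a positive value, and Zeb2 held only 27 to 71 counts in the double mutant samples. Zeb2 was 6.35-fold lower in double than in HER2 mutants (log2 difference -2.67 ± 0.721, adjusted p = 0.0597 in edgeR), and it was called there with DESeq2 (adjusted p = 0.00341), without a filter on low counts (adjusted p = 0.0369) and without HER2 replicate 3 (adjusted p = 0.0209).

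Calls among genes around the core factors can be set beside the 4.52%, 10.4% and 11.8% of all genes called in the PIK3CA, HER2 and double mutants. Of 11 tested other EMT transcription factors, 0 passed in the PIK3CA and double mutants by edgeR or DESeq2 and 0 had an unadjusted p under 0.05, and in the HER2 mutant Snai3 rose (0.367 ± 0.127 CPM in WT, SD, n = 3, and 2.40 ± 1.34, n = 4; log2 fold change 2.70 ± 0.567 SE, adjusted p = 0.00839) and Tcf4, an E-protein partner of TWIST, fell (-0.86 ± 0.261, adjusted p = 0.0472). Snai3 was lower in the double mutant than in the HER2 mutant (-1.85 ± 0.452, adjusted p = 0.0439). Of 11 regulators that keep the epithelial state, Ehf rose in the PIK3CA mutant (0.94 ± 0.214, adjusted p = 0.0185). Ovol2, a repressor of Zeb genes, fell in the HER2 mutant (-0.93 ± 0.251, adjusted p = 0.0291) and in the double mutant (-1.16 ± 0.237, adjusted p = 0.00469), from 7.09 ± 1.11 CPM in WT to 3.72 ± 0.312 (n = 4) and 3.16 ± 0.957 (n = 5). Elf3 was lower in double than in HER2 mutants (-1.29 ± 0.283, adjusted p = 0.0266). All adjusted p-values for these lists are from the same edgeR fit over all genes.

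Among 10 tested cadherins beside Cdh1 and Cdh2, 1 rose in each mutant and 1, 0 and 2 fell in the PIK3CA, HER2 and double mutants (Cdh6 in the first, Cdh6 and Cdh11 in the last). Cdh6 was the scarcest of these cadherins (mean log2 CPM -2.87), so its falls rest on few counts. Cdh19 rose in all 3 mutants, from 1.42 ± 0.564 CPM in WT to 8.86 ± 3.0, 11.2 ± 6.49 and 11.1 ± 3.25 in the PIK3CA, HER2 and double mutants (adjusted p = 0.0114, 0.00473 and 0.00268 in edgeR). Cdh11, the cadherin of fibroblasts and osteoblasts, fell in the double mutant from 20.8 ± 13.2 to 1.04 ± 0.327 CPM (-4.32 ± 0.909, adjusted p = 0.00569). Cdh3 (P-cadherin, a basal cadherin) was at 34.0 ± 20.4 CPM in WT, 57.1 ± 18.6 in the PIK3CA mutant, 19.5 ± 11.7 in the HER2 mutant and 47.6 ± 13.1 in the double mutant and was not called against WT. Among 10 tested catenins and nectins, which link cadherins to actin or start the junction, 1, 1 and 3 rose in the PIK3CA, HER2 and double mutants and 0 fell. Nectin1 rose in the PIK3CA (1.38 ± 0.334, adjusted p = 0.0254) and double mutants (1.16 ± 0.321, adjusted p = 0.0274), and Nectin3 rose in the HER2 mutant (1.62 ± 0.237, adjusted p = 0.00108, edgeR).

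Of 20 genes of epithelial junctions and surface, 0 passed in the PIK3CA mutant by edgeR or DESeq2 (4 at an unadjusted p under 0.05), 1 rose and 1 fell in the HER2 mutant, and 1 rose in the double mutant. Dsc2, a desmosomal cadherin, rose in the HER2 (1.76 ± 0.419, adjusted p = 0.0157) and double mutants (1.32 ± 0.400, adjusted p = 0.0421), and Pkp3, a desmosomal plaque gene, fell in the HER2 mutant (-0.51 ± 0.127, adjusted p = 0.0195, edgeR). The list's medians against WT were 0.21, 0.01 and -0.08 on the log2 scale.

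The 13 tested mesenchymal effector genes moved in both directions. Mmp2, a matrix metalloproteinase typical of fibroblasts, fell in all 3 mutants, from 246 ± 156 CPM in WT to 67.2 ± 29.6, 28.0 ± 17.9 and 25.9 ± 4.39 CPM (adjusted p = 0.0471, 0.00239 and 0.000621 in edgeR). Tgm2, a transglutaminase that crosslinks matrix proteins, rose in all 3, from 102 ± 12.1 to 279 ± 28.6, 384 ± 123 and 280 ± 130 CPM (adjusted p = 0.0180, 0.00312 and 0.00776). Tnc (tenascin C) rose in the double mutant (1.97 ± 0.554, adjusted p = 0.0301). Sparc, a collagen-binding matrix protein, was 77.6 ± 15.4 CPM in the HER2 mutant, lower than WT (314 ± 119; adjusted p = 0.00215) and lower than the double mutant (332 ± 159; adjusted p = 0.00334). Like Cdh2, Sparc was thus low in the HER2 mutant and not in the other 3 groups.

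The lists of other cell types gave the background for these values. Of 10 tested immune markers 8, 6 and 8 fell in the PIK3CA, HER2 and double mutants, and of 12 fibroblast markers 0, 1 and 8 fell (6, 6 and 10 at an unadjusted p under 0.05; 1, 4 and 10 fell by DESeq2). Of 7 tested endothelial and pericyte genes 1, 1 and 5 fell, and Pdgfrb, the pericyte and fibroblast receptor, fell in all 3 mutants. Basal and myoepithelial genes fell in 1, 4 and 1 of 8 cases, and 0, 0 and 1 rose, with Krt5 lower in the HER2 mutant than in WT (-2.89 ± 0.570, adjusted p = 0.00592) and than in the double mutant (2.73 ± 0.533 for double against HER2, adjusted p = 0.0152, edgeR). Of 5 tested adipocyte, glial and muscle genes 1, 3 and 2 fell. Of 10 luminal genes 1, 0 and 1 fell and 0, 0 and 1 rose. Median log2 fold changes were -6.01, -3.61 and -7.41 for the immune list and -2.54, -2.30 and -3.83 for the fibroblast list.

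The genes whose profiles over the 16 samples were nearest to each member were found by the root mean square difference of centred log2 CPM, as a description with no test. Zeb2 was nearest to Emilin2 (0.566) and Colec12 (0.637), beside its own SD of 2.48 on the log2 scale. Cdh2 was nearest to Hoxb3 (0.523) and Cyp26a1 (0.671; SD of Cdh2 1.82). Snai2 was nearest to Fat2 (0.358) and Lzts1 (0.374; SD of Snai2 1.15), and Trp63, the master factor of basal cells, came next (0.381). Twist2 was nearest to Mmp19 (0.616) and B4galt5 (0.648), Vim to Adgra2 (0.497) and Slc23a1 (0.556), and Fn1 to Lpar1 (0.581) and Itga5 (0.737), a subunit of the fibronectin receptor. Cdh1, with an SD of 0.30, was nearest to Nufip1 (0.117) and Nae1 (0.128), and Snai1 to Hpcal1 (0.319) and Mapk15 (0.343). Zeb1 (Map1a 0.932, Loxl1 0.949, SD of Zeb1 1.69) and Twist1 (Creb5 0.938, Gli3 0.965, SD of Twist1 1.62) had the largest distances to their nearest genes. The measure grows with a gene's own SD, which was 0.88 for Vim.

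Some reads could belong to genes on the other strand, since the strandedness of counting was not given in the sources used here. Zeb2 shares 653 exon bases with the antisense gene Zeb2os, which held 14 to 30 counts in WT, 0 to 4 in the single mutants and 0 in the double mutants. Twist2 shares 1477 bases with the antisense gene Gm29100 (7 to 13 counts in WT and 0 to 12 in the mutants), Fn1 shares 292 with Apol7d and Zeb1 shares 198 with Gm10125. Counts of Zeb2os were far below those of Zeb2 in WT (1356 to 5194), whereas those of Gm29100 were of the order of Twist2, whose values are therefore uncertain.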

How the data were processed

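The authors deposited raw read counts per Ensembl gene for 16 samples. Per the submitters' processing notes, the tools were bcl2fastq 2.20, STAR 2.0.4b, Subread, featureCounts 1.4.5 and DESeq2 1.33.5 with build mm10; strandedness and annotation are not given in the sources used here. Of 55774 rows, 287 identical repeats were dropped. Counts were tested with edgeR 4.0.16 in R 4.3.3 (filterByExpr, TMM, 1 quasi-likelihood fit of all 16 samples by genotype, two-sided, Benjamini-Hochberg adjustment over 24252 genes; code tested on simulated data). The standard error is the log2 fold change over the square root of F. CPM are TMM-scaled, and log2 CPM use a prior count of 2. Exon lengths and positions are from GENCODE M21 (GRCm38). Alternatives were other scalings, DESeq2 1.42.0, no filter, fewer samples, a replicate block and a GC and length offset. The 10 genes, the lists and the naming rule (from each list, the called genes with the largest rise and fall in each comparison with WT and in double against HER2 mutants; the nearest 2 profiles) were chosen with earlier results of these data known. Cdh3, Cdh6, Trp63, Sparc against WT, Tgm2 in the double mutant, and levels of Lyz2 in each sample and of Col1a1 were added after seeing their values. One gene that the naming rule picked is not reported here.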

Additional observations from a re-analysis of the deposited data

Results flagged for a closer look

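In 30 pairs of a gene and a mutant genotype, 4 samples stood far from the rest of their group by Dixon's criterion on CPM. Chance alone gives this in about 1 of 20 groups if values are normally distributed, which CPM of scarce transcripts need not be. Zeb1 in PIK3CA replicate 4 was at 6.13 CPM, beside 0.186 to 1.13 in the other 3. Twist1 in double mutant replicate 3 was at 26.1 CPM, beside 3.19 to 8.67 in the other 4. Twist2 in PIK3CA replicate 4 was at 0.125 CPM (7 counts) and in double mutant replicate 2 at 0.0420 CPM (2 counts), while all other samples of these groups were at 0 counts. For these 2 Twist2 samples the criterion is met whatever their size, so the chance rate does not apply to them. For Cdh2 all 4 PIK3CA mutants lay above WT and all 4 HER2 mutants below it, though the PIK3CA difference from WT did not pass the test (adjusted p = 0.493). The difference between the single mutants was -3.32 on the log2 scale (adjusted p = 0.0132 in edgeR).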

How the results depend on the processing

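The Zeb2 call in the PIK3CA and double mutants and the Cdh2 call between HER2 and PIK3CA mutants were kept under every alternative run. Members called against WT in the PIK3CA mutant numbered 1, and 2 with a replicate block, 3 with only the 2 genotypes in the fit and 3 without PIK3CA replicate 4 and HER2 replicates 2 and 4 (1 to 2 without single samples). In the HER2 mutant they numbered 2, and 1 under upper-quartile scaling, 1 with the replicate block and 0 with only the 2 genotypes (0 to 2 without single samples). With the block that 1 was Twist2 (adjusted p = 0.0494), gained as in the PIK3CA mutant (adjusted p = 0.0284, edgeR), while Zeb2 and Cdh2 were lost. In the double mutant the 3 became 4 with DESeq2 (Zeb1 gained) and 1 to 3 without single samples; with only the 2 genotypes Vim was lost (adjusted p = 0.0827) and Zeb1 and Snai2 gained (adjusted p = 0.00925 and 0.0307). For double against HER2 mutants the 1 became 2 with no filter, 0 with the replicate block, 0 with only the 2 genotypes, 3 with DESeq2 and 0 without those 3 samples (0 to 2 without single samples). For HER2 against PIK3CA it became 3 with DESeq2 (1 to 2 without single samples), and for the interaction 1 without those 3 samples, which also held the most Zeb1 of the mutants. Without them the log2 fold changes against WT of Snai1 in the PIK3CA mutant (-0.015), Snai2 in the HER2 mutant (0.40) and Cdh1 in the HER2 mutant (-0.022) changed sign. Without single samples Snai1 ranged from -0.016 to 0.45, Snai2 from -1.13 to 0.11, Cdh1 from -0.019 to 0.25 and Twist1 in the HER2 mutant from -0.051 to 1.39. The cause was not tested. The replicate block also ended the calls of Vim in the double mutant (adjusted p = 0.123), Zeb2 and Cdh2 in the HER2 mutant (adjusted p = 0.0505 and 0.0988) and Cdh2 in double against HER2 mutants (adjusted p = 0.118). Same-numbered samples correlated little over all groups (mean r of deviations 0.0234 over 21 pairs, and -0.00772 over 74 others). HER2 and double mutants were the exception (0.0660 to 0.420, mean 0.240 over 4 pairs, and -0.0651 over 16 others), but not every pair exceeded 0.1, so the numbers were not taken as pairs.

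Over all genes, calls against WT in the PIK3CA mutant were 1096 (4136 with only the 2 genotypes, 1869 with DESeq2, 396 to 1043 without single samples), and in the HER2 mutant 2518 (1625 with the replicate block, 541 with only the 2 genotypes, 733 to 2693). In the double mutant they were 2850 (1173 to 2961); the lowest of each of these 3 ranges was without WT replicate 3. For double against HER2 they were 606 (118 with the block, 37 with only the 2 genotypes, 1715 with DESeq2, 353 with mutant samples only, 350 without the 3 samples named above, 1125 without double mutant replicates 2 and 3), and 41.1% of them were higher (30.2% under upper-quartile scaling). For double against PIK3CA they were 163 (19 with the block, 364 with only the 2 genotypes, 661 with DESeq2, 47 with mutant samples only). For HER2 against PIK3CA they were 1069 (552 with the block, 534 with only the 2 genotypes, 2219 with DESeq2, 700 without the 3 samples), and 50.1% were higher (61.1% with the GC and length offset). For the interaction they were 257 (35 with the block, 966 with DESeq2, 998 without double mutant replicates 2 and 3). Leaving samples out was chosen after seeing the data, except for single samples in turn. Low depth limits Twist2, at 0 to 30 counts per library.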
